A study of Danio rerio with 10 samples.

Results

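The genes described here are NF-κB subunits and their inhibitors in zebrafish tissues after injury, in *il11ra* mutants and wild-type siblings. They were chosen by name: *nfkbiaa*, *nfkbiab*, *nfkb1*, *nfkb2*, *rela*, *relb* and *tnfaip3*, each taken where the gene symbol in a table equals that name. All 7 are listed in both deposited tables, among 22202 genes in the fin table and 23511 in the ventricle table, and each symbol has 1 entry per table. RNA-seq was performed on caudal fins of adult fish at 24 hours post amputation (hpa), with 3 *il11ra* mutant and 3 wild-type libraries of 1 animal each. It was also performed on whole cardiac ventricles of adult fish at 96 hours post cryoinjury (hpci), with 2 *il11ra* mutant and 2 wild-type libraries of 2 pooled animals each. The mutants carry the CRISPR-Cas9 allele *bns251* of *il11ra*, the gene for the receptor of the cytokine Il-11, and its loss is not restricted to any tissue. All 10 libraries come from injured tissue, so no level before injury was measured. The values are normalized counts, which are read counts divided by 1 factor per library within a tissue and rounded by the authors.

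NF-κB dimers are built from the subunits encoded by *rela*, *relb*, *rel*, *nfkb1* and *nfkb2*, and in resting cells inhibitors of the IκB family hold them in the cytoplasm. Signals from cytokine and Toll-like receptors activate the IκB kinases, the inhibitor is degraded, and the freed dimers switch on inflammatory genes. In mammals the genes for IκBα (in zebrafish *nfkbiaa* and *nfkbiab*) and for A20 (*tnfaip3*) are themselves targets and close a negative feedback loop. A canonical arm acts mainly through dimers of RelA with the product of *nfkb1*, and a noncanonical arm through dimers of RelB with the product of *nfkb2*.

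Between genotypes, 5 of the 7 genes changed in fins, where 36.6% of all genes tested did, and none passed the test in ventricles, nor did any other gene there. In mutant fins both IκBα paralogs and both noncanonical subunits, *nfkb2* and *relb*, rose. Of the canonical subunits among the 7, *nfkb1* fell and *rela* showed no detectable change. The largest rise was that of *nfkbiab*, at 1.86-fold. In ventricles the same gene pointed the other way, at about 2020 normalized counts in mutants and 3745 in wild type, without passing the adjusted test, and its genotype effect differed between the tissues.

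The libraries bear out their labels. Normalized counts of *il11ra* were 3, 6 and 7 in mutant fins, against 65, 80 and 57 in wild-type fins, and 38 and 23 in mutant ventricles, against 107 and 189 in wild-type ventricles. Cardiomyocyte markers summed to between 434164 and 836822 in every ventricle library and to at most 84 in any fin library. Epidermal markers summed to at least 8449 in every fin library and to at most 4774 in any ventricle library. Most of the ventricle sum came from *krt4* and *krt91*. Fin libraries held an estimated 2963658 to 4699028 reads on genes and ventricle libraries 12862399 to 14292520, so that 1 read is worth between 0.802 and 1.345 normalized counts in fins and between 0.836 and 1.032 in ventricles. Differences of a few units between libraries therefore stand for a few reads. The genotypes differed widely in fins: in limma with Benjamini-Hochberg adjustment, 6132 of 16741 genes tested passed an adjusted p of 0.05. Correlations over genes were 0.936 to 0.964 between fin libraries of 1 genotype and 0.812 to 0.875 across genotypes. For ventricles the same ranges were 0.957 to 0.973 and 0.946 to 0.971.

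Among the inhibitors in fins, *nfkbiaa* lies on the plus strand of chromosome 20 (GRCz11, chr20:16881883-16884737) and is annotated as protein-coding, as are all 7 genes. It had 804, 681 and 744 normalized counts in mutant fins, against 464, 415 and 476 in wild-type fins. Every mutant library was above every wild-type library. The means were 743 ± 61.5 in mutants and 452 ± 32.3 in wild type (SD, n = 3 each). This is a log2 fold change of 0.72 (SE 0.095), and it had an adjusted p of 0.00161 in limma. The gene overlaps *psma6b*, a proteasome subunit gene on the opposite strand, over 352 of its 2855 bases. Another opposite-strand gene listed in fins, *CU855900.1*, also overlaps *nfkbiaa*, and its counts were not examined. Whether the counting used strand is not given in the sources used here. Normalized counts of *psma6b* were 226, 237 and 224 in mutant fins and 267, 202 and 254 in wild-type fins, and these overlap.

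The paralog *nfkbiab* (chr17:12942021-12949754, plus strand) encodes the second zebrafish IκBα. It had 732, 703 and 720 normalized counts in mutant fins, against 355, 387 and 419 in wild-type fins. The mutant libraries lie close together and well above the wild-type libraries. Means of 718 ± 14.6 in mutants and 387 ± 32.0 in wild type (SD, n = 3 each) gave a log2 fold change of 0.89 (SE 0.086), with an adjusted p of 0.000532 in limma. How reads shared by the paralogs were assigned is not given in the sources used here.

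A20, the ubiquitin-editing enzyme that shuts off signaling upstream of the IκB kinases, is encoded by *tnfaip3* (chr13:1182257-1208930, plus strand), and was scarcely detected in fins. Its normalized counts were 9, 4 and 10 in mutant fins, against 8, 24 and 18 in wild-type fins. The genotypes overlap, with 2 wild-type libraries above all mutant ones. Its log2 fold change was −0.99 with a 95% interval from −2.19 to 0.21 (adjusted p = 0.169 in limma) and a difference was not detectable at this depth.

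**Figure D1:**
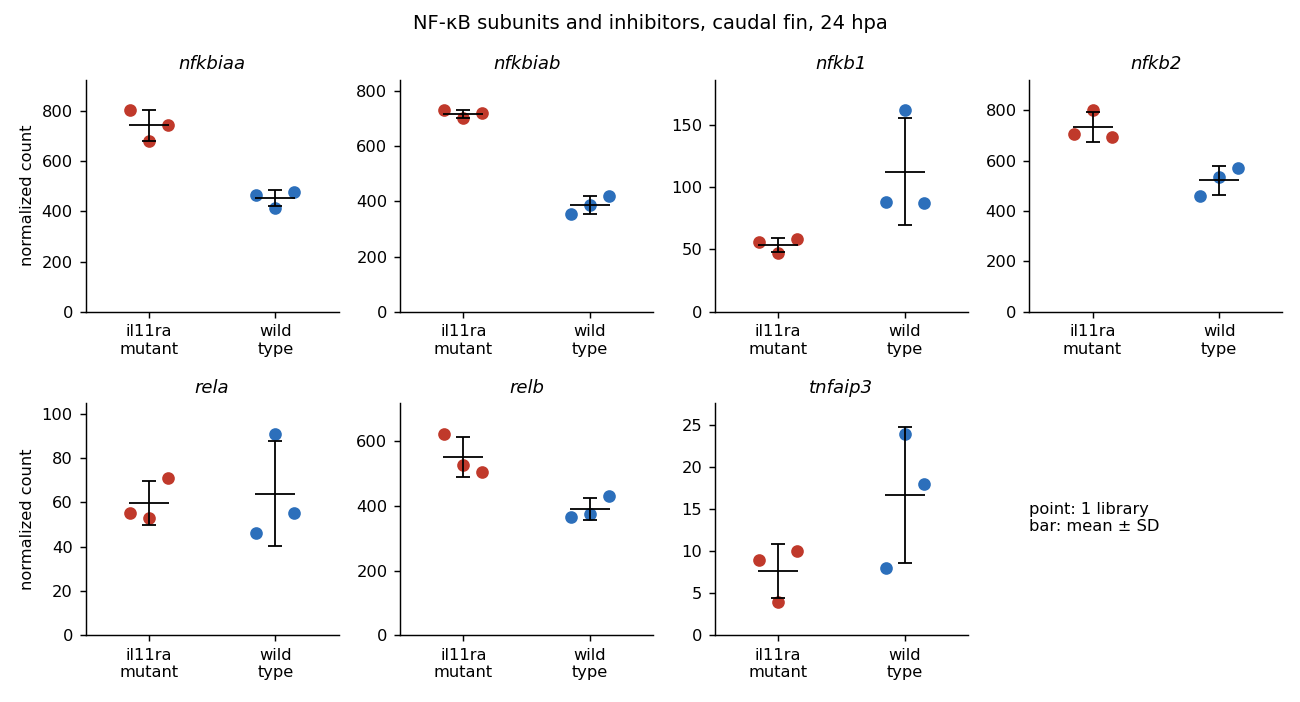
Normalized counts of the 7 genes in caudal fins at 24 hpa, with *il11ra* mutants in red on the left and wild type in blue on the right of each panel; points are libraries, and bars show the mean and SD of 3. Mutant points lie above all wild-type points for *nfkbiaa*, *nfkbiab*, *nfkb2* and *relb*, below them for *nfkb1*, and among them for *rela* and *tnfaip3*.

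Among the subunits in fins, *nfkb2* (chr13:22717366-22735547, plus strand) encodes the p100 precursor of p52. Mutant fins had 706, 801 and 695 normalized counts of it and wild-type fins 460, 535 and 572. The genotypes do not overlap. Means were 734 ± 58.3 in mutants and 522 ± 57.1 in wild type (SD, n = 3 each), with a log2 fold change of 0.49 (SE 0.11) and an adjusted p of 0.00951 in limma.

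Its partner in the noncanonical arm, *relb* (chr15:17100412-17125217, plus strand), had 623, 526 and 506 normalized counts in mutant fins, against 367, 376 and 430 in wild-type fins. Again all mutant libraries were the higher ones. Means were 552 ± 62.6 in mutants and 391 ± 34.1 in wild type (SD, n = 3 each), and the log2 fold change was 0.49 (SE 0.11), with an adjusted p of 0.0106 in limma.

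The canonical subunit *nfkb1* (chr14:49811926-49859823, minus strand), the gene for the p105 precursor of p50, was the only one of the 7 to pass the test as lower. It had 56, 47 and 58 normalized counts in mutant fins, against 88, 162 and 87 in wild-type fins. All mutant libraries lie below all wild-type libraries, and 1 wild-type library, replicate 2, stands well above the other 2. With means of 53.7 ± 5.86 in mutants and 112 ± 43.0 in wild type (SD, n = 3 each), the log2 fold change was −0.99 (SE 0.26), with an adjusted p of 0.0202 in limma. It kept an adjusted p of at most 0.0495 when any 1 library was left out, with log2 fold changes from −1.145 to −0.70. The smallest of these was without wild-type replicate 2.

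For *rela* (chr7:778297-804515, minus strand), which encodes the transactivating subunit p65, mutant fins had 55, 53 and 71 normalized counts and wild-type fins 46, 91 and 55. The mutant values lie within the wild-type range. The log2 fold change was −0.05 with a 95% interval from −0.68 to 0.58 (adjusted p = 0.897 in limma), which leaves room for a change of the size seen in *nfkb2* and *relb* in either direction. Wild-type replicate 2 also had the highest value of *rela* and of *tnfaip3*.

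All 7 genes passed the minimum mean of 10 normalized counts in both tissues, *tnfaip3* in fins only narrowly. In fins 5 of the 7 passed the threshold, where 36.6% of all genes tested did. Of these, 4 were higher in mutants, against 19.6% of all genes, and 1 was lower, against 17.0%. The same 5 genes had no overlap between genotypes, which held for 52.8% of all genes tested. The median log2 fold change of the 7 was 0.49 and that of all genes −0.014. With 3 against 3 libraries the exact permutation test (two-sided) has a smallest p of 0.1. All 5 reached it, which follows from their lack of overlap and adds nothing to it. All 5 calls also held in each of the 6 fits that left out 1 library.

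Because both members of a pair come from the same library, ratios between them do not depend on its scaling factor. The ratio of *nfkb2* to *nfkb1* was 12.6, 17.0 and 12.0 in mutant fins, against 5.23, 3.30 and 6.58 in wild-type fins. These do not overlap, which follows from the 2 genes being apart in opposite directions and adds nothing to their calls. In ventricles this ratio was 4.23 and 3.81 in mutants and 4.2 and 4.73 in wild type. The ratio of *relb* to *rela* overlapped in fins, at 11.3, 9.93 and 7.13 in mutants and 7.98, 4.13 and 7.82 in wild type.

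Marker lists of several cell types differed between genotypes in fins along with these genes. Their counts are to be read against the shares over all genes tested in fins, 19.6% higher and 17.0% lower. The 11 macrophage markers summed to between 4216 and 4771 normalized counts in mutant fins, against 2519 to 2998 in wild-type fins. Of the 10 tested, 8 passed the threshold as higher and none as lower. The macrophage receptor gene *csf1ra* pointed the other way, with means of 187 in mutant and 332 in wild-type fins. Its log2 fold change was −0.83 (adjusted p = 0.052 in limma), and the genotypes overlap. The 6 neutrophil markers listed, of 8, summed to between 1701 and 2480 in mutant fins, against 502 to 686 in wild-type fins, with 3 of 5 tested higher and 1, *csf3r*, lower. The 3 were *mpx*, *npsn* and *cpa5*. Since *cpa5* is known from mast cells, the sum and the count are not specific to neutrophils. The 7 lymphocyte markers listed, of 10, summed to between 619 and 865 in mutant fins and between 225 and 254 in wild-type fins, with 3 of 4 tested higher. No listed marker of these cell types was at 0 in every fin library. Endothelial markers summed to between 1074 and 1357 in mutant and between 992 and 1068 in wild-type fins, with 2 of 5 tested higher. Fibroblast markers were between 8717 and 8777 in mutant and between 10210 and 11992 in wild-type fins, with 4 of 8 tested lower and 1 higher. Of the osteoblast markers 3 of 5 tested were lower, and their sums overlapped, at 1020 to 1359 in mutant and 1354 to 1504 in wild-type fins. Epidermal markers overlapped as well, at 9581 to 12221 in mutant and 8449 to 11426 in wild-type fins. The part of these cell types in the results on NF-κB genes was not tested, and in bulk tissue more cells of a type and more RNA per cell cannot be told apart.

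In ventricles the inhibitor *nfkbiab* had 1866 and 2174 normalized counts in mutants, against 4166 and 3323 in wild type. Both mutant libraries lie below both wild-type libraries. Means were 2020 ± 218 in mutants and 3745 ± 596 in wild type (SD, n = 2 each). The log2 fold change of *nfkbiab* was −0.89 (SE 0.21), with an unadjusted p of 0.00583 and an adjusted p of 0.475 in limma, so that it did not pass the threshold. Leaving out any 1 library gave log2 fold changes from −1.05 to −0.72.

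For *tnfaip3*, mutant ventricles had 91 and 65 normalized counts and wild-type ventricles 103 and 175. The genotypes do not overlap, by a margin smaller than the gap between the wild-type libraries. The log2 fold change was −0.80 (SE 0.33), with an unadjusted p of 0.053 and an adjusted p of 0.741 in limma. The other inhibitor, *nfkbiaa*, had 386 and 330 normalized counts in mutant ventricles, both between the wild-type values of 243 and 466.

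The subunits overlapped between genotypes in ventricles. Normalized counts of *nfkb1* were 161 and 165 in mutants, against 133 and 180 in wild type, and those of *nfkb2* were 681 and 629 in mutants, against 559 and 852 in wild type. For *rela* they were 120 and 108 in mutants and 119 and 140 in wild type, and for *relb* 502 and 470 in mutants and 422 and 482 in wild type. Wild-type replicate 2 was above replicate 1 for 6 of the 7 genes and below it for *nfkbiab* alone. The log2 fold changes of the 4 subunits lay between −0.18 and 0.11, with 95% intervals that reach from −0.70 (*rela*) to 0.63 (*nfkb1*). The intervals of *nfkb2* and *relb* reach 0.52 and 0.54 and so include rises of the size seen in fins.

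**Figure D2:**
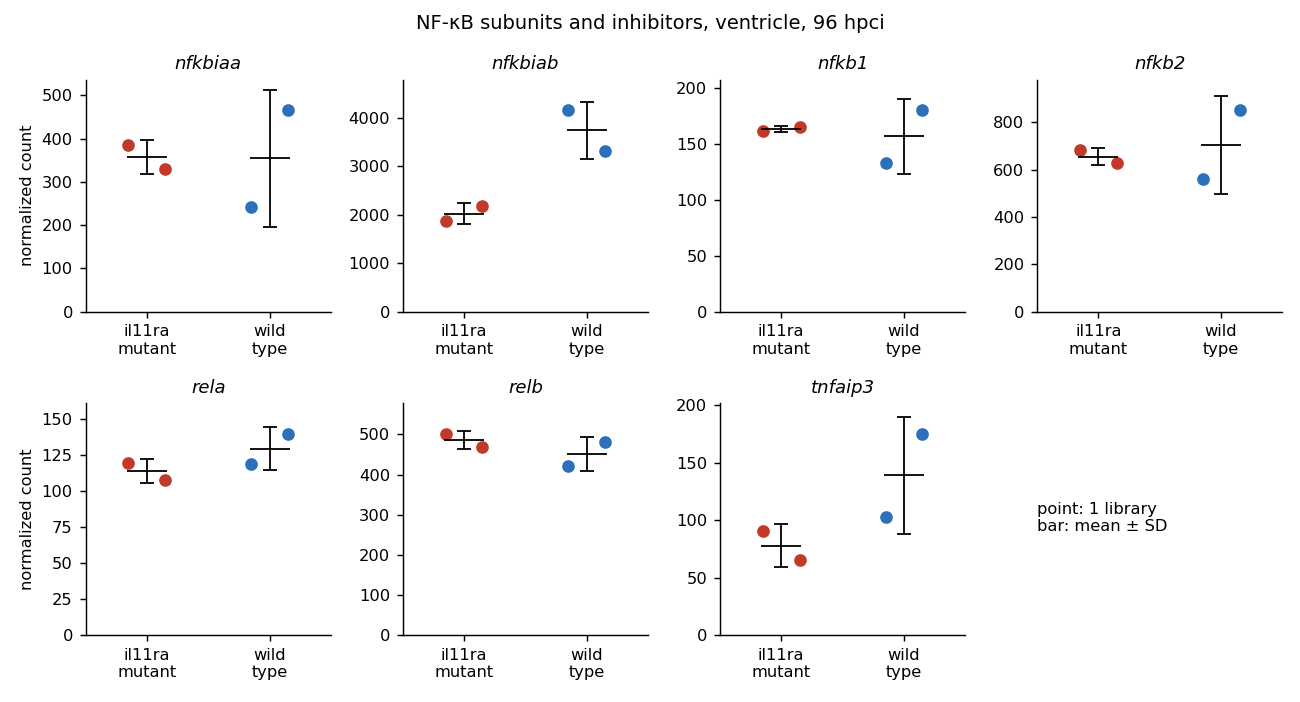
Normalized counts of the 7 genes in ventricles at 96 hpci, with *il11ra* mutants in red on the left and wild type in blue on the right of each panel; points are libraries, and bars show the mean and SD of 2. The mutant points of *nfkbiab* (1866 and 2174) lie below the wild-type points (4166 and 3323), those of *tnfaip3* lie below by a smaller margin, and the other panels overlap.

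None of the 7 passed the adjusted threshold in ventricles, and neither did any of the 17411 genes tested (0.0%). At an unadjusted p under 0.05, limma gave 1 of the 7, *nfkbiab*, which was lower in mutants. Over all genes 6.74% met that limit, and 3.66% met it as lower. Genotypes did not overlap for 2 of the 7, *nfkbiab* and *tnfaip3*, against 35.3% of all genes tested. The median log2 fold change of the 7 was −0.08 and that of all genes 0.010. With 2 against 2 libraries the exact permutation test has a smallest p of 0.33.

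Among the marker lists in ventricles, fibroblast markers summed to between 52063 and 56538 normalized counts in mutants and between 33951 and 40015 in wild type. Of the 6 tested, *col1a1a* and *col1a2* were higher in both mutant libraries and made up most of that sum. By contrast *prrx1a* was lower in both, with 89 and 104 normalized counts in mutants against 127 and 145 in wild type. The other fibroblast markers tested overlapped. Erythrocyte markers summed to between 86850 and 99112 in mutants and between 73393 and 77673 in wild type. Endothelial markers summed to between 11634 and 12649 in mutants and between 12704 and 14464 in wild type. The 4 epicardial markers summed to between 2846 and 3894 in mutants and between 4627 and 6418 in wild type, but went both ways. Of these, *aldh1a2*, with 3096 and 1652 normalized counts in mutants against 3874 and 5549 in wild type, made up most of the sum. Also lower was *wt1b*, whereas *tcf21* and *tbx18* were higher in both mutant libraries. According to the paper, endocardial as well as epicardial cells activate *aldh1a2* after injury. By immunostaining at an earlier time it found less endocardial Aldh1a2 in mutants, with comparable epicardial staining. The sum is thus not specific to the epicardium. The summed values of these 4 lists did not overlap between genotypes, nor did the epidermal list (2555 to 3425 in mutants, 4294 to 4774 in wild type). Most of that epidermal sum came from *krt4* and *krt91*. Leukocyte lists did overlap. Macrophage markers summed to between 14579 and 22061 in mutants and between 15041 and 16515 in wild type. The neutrophil list, with *cpa5* again included, summed to between 283 and 511 in mutants and between 434 and 589 in wild type. The part of these lists in the value of *nfkbiab* was not tested.

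**Figure D3:**
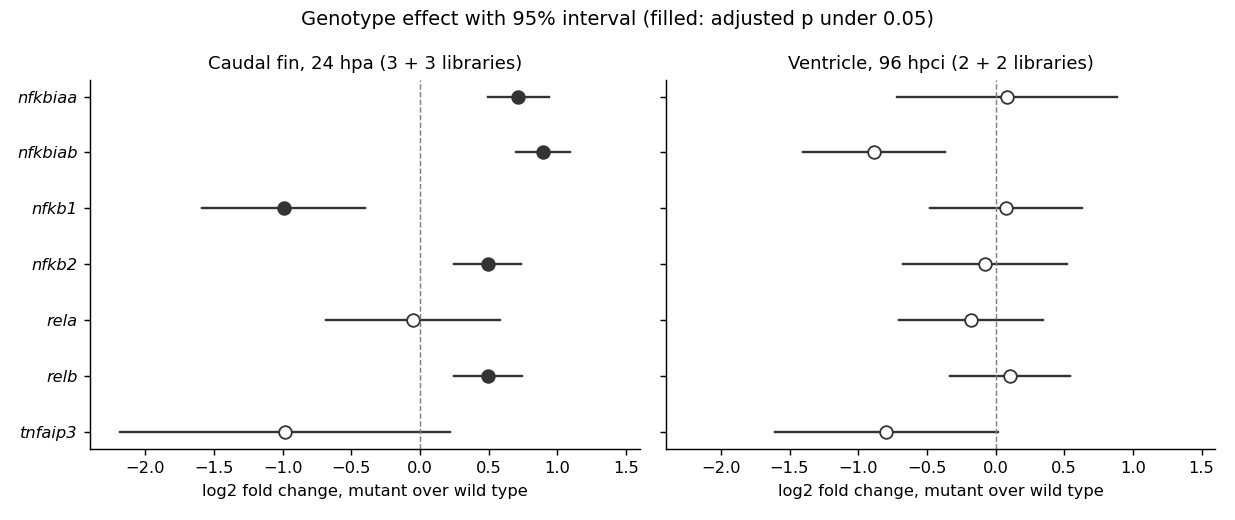
Log2 fold change of mutant over wild type for the 7 genes, with the 95% interval from limma, in fins (left) and ventricles (right); filled points passed an adjusted p of 0.05. The 5 filled points are all in fins, and *nfkbiab* is at 0.89 in fins and −0.89 in ventricles.

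Whether the genotype effect differed between the tissues was tested in 1 model over all 10 libraries, as the fin effect minus the ventricle effect. That model assumes a single spread for both tissues, which is a limit. For *nfkbiab* the difference was 1.78 on the log2 scale (SE 0.18), with an adjusted p of 0.00123 in limma. This SE is smaller than that of the ventricle effect alone (0.21), because 1 spread is set from both tissues. All 3 mutant fins were above all wild-type fins and both mutant ventricles were below both wild-type ventricles. When any 1 library was left out, the difference lay between 1.62 and 1.94, with an adjusted p of at most 0.00504. Among the 7 genes it was the only one to pass, where 14.1% of the 14520 genes tested in both tissues did, so 1 of 7 is close to that share. The next differences were −1.07 for *nfkb1* (SE 0.38, adjusted p = 0.086 in limma), 0.63 for *nfkbiaa* (SE 0.32, adjusted p = 0.192) and 0.57 for *nfkb2* (SE 0.24, adjusted p = 0.133). Without wild-type ventricle replicate 1, *nfkbiaa* (1.1, adjusted p = 0.0235) and *nfkb2* (0.87, adjusted p = 0.0454) passed as well, so that 3 of 7 did.

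The IκBα paralogs thus stood in different proportion in the tissues. The ratio of *nfkbiab* to *nfkbiaa* was 0.910, 1.03 and 0.968 in mutant fins and 0.765, 0.933 and 0.880 in wild-type fins. In ventricles it was 4.83 and 6.59 in mutants, against 17.1 and 7.13 in wild type. Every ventricle library was above every fin library, and the highest ratio belonged to wild-type ventricle replicate 1, which had the least *nfkbiaa* and the most *nfkbiab* of the 4 ventricle libraries.

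**Figure D4:**
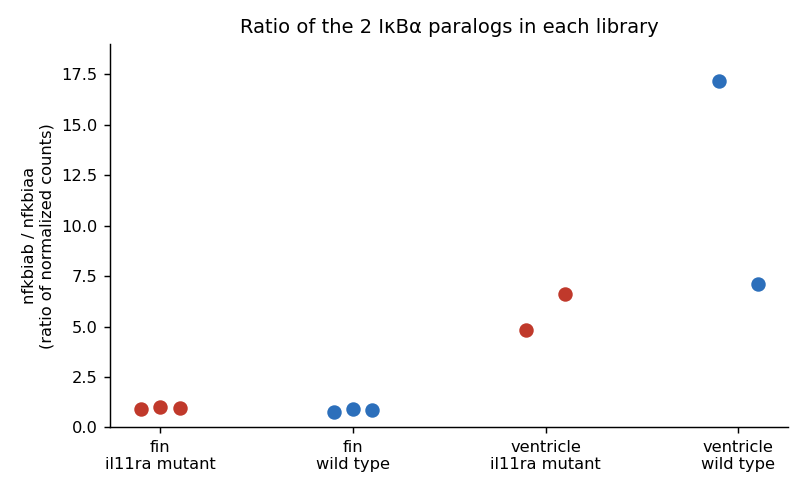
Ratio of *nfkbiab* to *nfkbiaa* normalized counts in each of the 10 libraries; mutants are red and wild type blue, and each point is 1 library. Fin libraries lie between 0.765 and 1.03 and ventricle libraries between 4.83 and 17.1.

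Since the tables were normalized separately, levels across tissues were set per 1000000 normalized counts of the nuclear genes that both tables list (CPM), and are given as a description with no test. On that scale *nfkbiab* averaged 185 ± 1.96 in mutant and 102 ± 9.81 in wild-type fins (SD, n = 3 each), and 210 ± 4.37 in mutant and 373 ± 45.5 in wild-type ventricles (SD, n = 2 each). Its order was therefore wild-type ventricle, mutant ventricle, mutant fin and wild-type fin, without overlap between neighbours. For *nfkbiaa* the means were 192 ± 12.0 in mutant and 118 ± 7.71 in wild-type fins, and 37.5 ± 7.39 in mutant and 35.7 ± 17.1 in wild-type ventricles. The fin groups are apart and the ventricle groups overlap.

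CPM of *nfkb2* were 190 ± 17.8 in mutant and 137 ± 17.0 in wild-type fins, and 68.5 ± 9.79 in mutant and 70.8 ± 23.3 in wild-type ventricles. Those of *relb* were 142 ± 12.9 in mutant and 103 ± 9.91 in wild-type fins, and 50.8 ± 6.78 in mutant and 45.2 ± 5.92 in wild-type ventricles. Both noncanonical subunits were thus higher in CPM in every fin than in every ventricle library. So was *rel*, a subunit gene outside the 7, and the gap was therefore not particular to the noncanonical subunits. The canonical subunits among the 7, *nfkb1* and *rela*, showed no such gap. The order for *nfkb1* was led by wild-type fins (29.6 ± 11.7), followed by mutant ventricles (17.0 ± 1.19), wild-type ventricles (15.7 ± 3.90) and mutant fins (13.8 ± 1.41), and from mutant ventricles on each group overlaps the next. For *rela* all 4 group means lay between 11.9 and 16.8, and each group overlaps its neighbour in the order. CPM of *tnfaip3* were 1.97 ± 0.818 in mutant and 4.40 ± 2.19 in wild-type fins, and 8.22 ± 2.63 in mutant and 14.0 ± 5.60 in wild-type ventricles. No fin library reached the wild-type ventricle range.

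Other genes of the pathway were described from 6 lists with 133 distinct symbols, of which 116 gene entries were tested in fins and 111 in ventricles. In fins 52 (44.8%) were higher in mutants and 8 (6.90%) lower, where 19.6% of all genes tested were higher and 17.0% lower. Their median log2 fold change was 0.43, and that of all genes −0.014. The lists were chosen with earlier results of these data known, so the shares are a description only. The counts of single lists are to be read against the same shares, and *tnfa*, *tnfb* and *il1b* stand in more than 1 list. Among the remaining Rel factors and IκB proteins, 4 of 6 tested rose and none fell. The largest of these rises was that of *bcl3*, which encodes a nuclear IκB protein that binds p50 and p52 dimers in mammals. It had 187, 267 and 185 normalized counts in mutant fins, against 75, 107 and 108 in wild-type fins, a log2 fold change of 1.13 (SE 0.20, adjusted p = 0.00478 in limma). Also higher were *nfkbie*, the gene for the inhibitor IκBε (0.65), *nfkbiz*, for the nuclear protein IκBζ (0.60), and *rel*, for the subunit c-Rel (0.49, adjusted p = 0.0471 in limma). The call for *rel* held in 1 of the 6 fits that left out 1 library, where its adjusted p went up to 0.125.

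In ventricles *bcl3* had 47 and 31 normalized counts in mutants, against 132 and 135 in wild type. Both mutant libraries were below both wild-type libraries, with a log2 fold change of −1.78 (SE 0.28), an unadjusted p of 0.000744 and an adjusted p of 0.254 in limma. Its fin effect minus its ventricle effect was 2.91 (SE 0.35, adjusted p = 0.00242), and lay between 2.62 and 3.20 when any 1 library was left out. Like *nfkbiab*, *bcl3* was thus higher in mutant fins and lower in mutant ventricles, and the difference between tissues passed the test for both. This pattern was not particular to them. In the same lists *fosl1a*, *cxcl18b*, *mcl1b*, *card9* and *tbk1* were also higher in all mutant fins and lower in all mutant ventricles. Their differences between tissues passed the test as well. Over the 6 lists that test was passed by 21 of 109 gene entries (19.3%), where 14.1% of the 14520 genes tested in both tissues passed it.

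Upstream of the IκB kinases, 10 of 22 ligands and receptors tested in fins were higher in mutants (45.5%) and 3 lower (13.6%), with a median log2 fold change of 0.48. Of 10 Toll-like receptor entries among them, 5 were higher, 1 was lower (*tlr18*, −0.81) and 4 did not pass. The 4 largest rises of the list were those of *tlr1* at 2.46, *tlr4ba* at 2.30, *cd40lg*, the gene for the ligand of Cd40, at 2.18 and *tlr4bb* at 2.17. Wild-type fins averaged only 9.67 normalized counts of *cd40lg* and 5.33 of *tlr4bb*. These 2 genes passed the minimum mean of 10 through the mutant fins (47.0 and 27.0), so the filter favours rises at such levels. Of the adaptors and ubiquitin ligases, 10 of 22 were higher (45.5%) and 3 lower (13.6%, median 0.32). They included *irak3*, which in mammals restrains Toll-like receptor signaling (1.83), *card9*, an adaptor of C-type lectin receptors (1.25), *traf5* (1.24) and *rbck1*, a component of the linear ubiquitin ligase (1.12). The call for *traf5* was lost in 1 of the 6 fits that left out 1 library (adjusted p = 0.0503 in limma).

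Of the IκB kinases and the kinases above them, 4 of 12 were higher (33.3%) and 1 lower (8.33%) in mutant fins (median 0.20). Among those that rose were *map3k14a*, for the kinase NIK that drives processing of p100 in the noncanonical arm (0.58), *map3k8*, for the p105-bound kinase Tpl2 (1.01), and *tbk1* (0.94). The one that fell was *map3k3* (−0.50), whose call held in 2 of the 6 fits that left out 1 library (adjusted p up to 0.124 in limma). Among partners of A20 and deubiquitinases, 6 of 17 were higher (35.3%) and 1 lower (5.88%, median 0.21). Of the genes for A20-binding proteins, *tnip2* rose (1.09) and *tax1bp1a* fell (−0.83), while *rnf11a*, for a ring finger protein of the A20 complex, rose (0.99). The fourth gene named of this list, *n4bp1*, was at 0.59 and lost its call in 1 of the 6 fits.

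Of the genes listed as classical NF-κB targets, 21 of 40 tested were higher in mutant fins (52.5%, against 19.6% of all genes) and none lower (against 17.0%), with a median of 0.51. That list was drawn up by name and also holds immediate early and growth genes such as *egr1*, *ier2a* and *mycb*, which were among the higher ones. Whether NF-κB acts on any listed gene in these fish was not tested. The cytokine gene *il1b* had 374, 341 and 364 normalized counts in mutant fins, against 87, 149 and 91 in wild-type fins, a log2 fold change of 1.76 (SE 0.20, adjusted p = 0.000931 in limma). The transcription factor gene *irf1a* changed most, at 3.47, and the tumor necrosis factor genes *tnfa* and *tnfb* were at 1.81 and 1.48. Means of *tnfa* were only 23.0 normalized counts in mutants and 5.0 in wild type, so that it passed the minimum mean through the mutants. Its call held in 2 of the 6 fits that left out 1 library (adjusted p up to 0.074 in limma). Which cells express the genes in these lists was not measured, and the part of leukocytes in these values was not tested.

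In ventricles none of the 111 entries passed the adjusted threshold in limma. At an unadjusted p under 0.05 in limma, 9 were higher (8.11%) and 6 lower (5.41%), 13.5% in all. Over all genes 6.74% met that limit, 3.66% as lower and the rest as higher. The median log2 fold change of the 111 entries was 0.031, and that of all genes 0.010. The smallest unadjusted p was that of the immediate early gene *egr1* (log2 fold change 1.95, unadjusted p = 0.000135, adjusted p = 0.158), which was singled out after its values were seen.

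**Figure D5:**
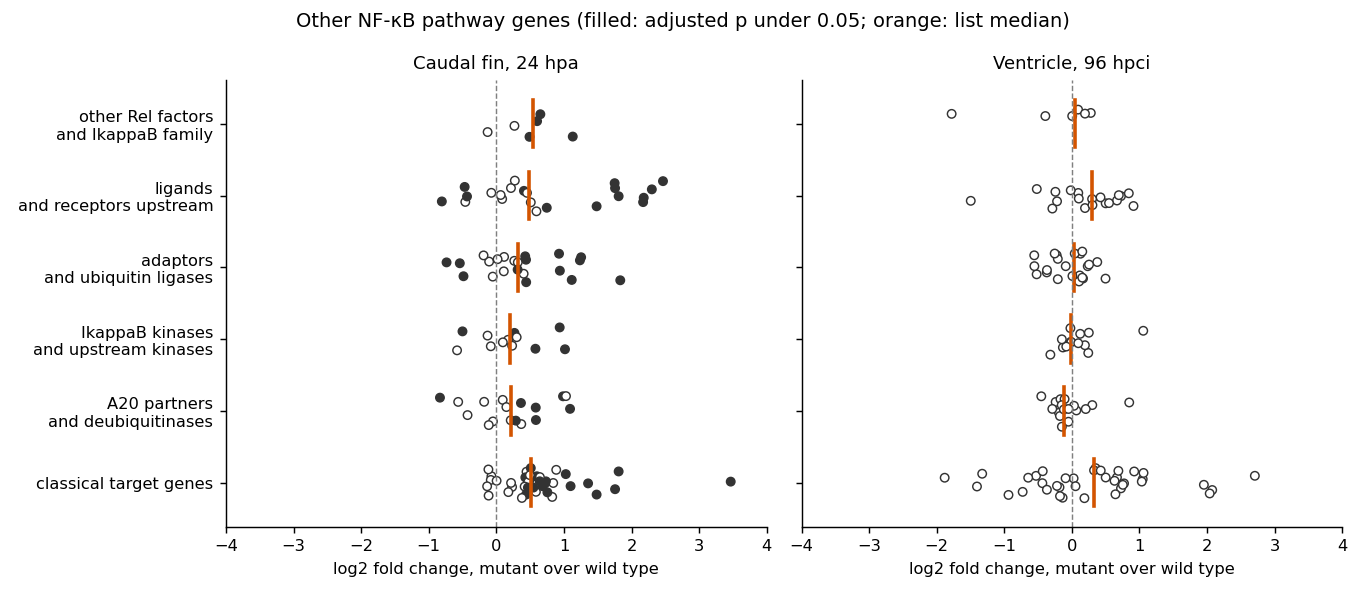
Log2 fold change of mutant over wild type for every tested gene of the 6 pathway lists, in fins (left) and ventricles (right); each circle is 1 gene, filled where the adjusted p was under 0.05, and orange lines are list medians. In fins 52 genes are filled right of 0 and 8 left of it, with cytokine genes that belong to more than 1 list drawn in each, and in ventricles none is filled.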

How the data were processed

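The submitters' processing notes name Trimmomatic 0.39, STAR 2.7.3a, featureCounts 1.6.5, DESeq2 1.26 and GRCz11. The strand setting and the treatment of shared reads are not given in the sources used here. Per gene the authors deposited a signal, the read count over a size factor set within each tissue, as a whole number. Whole reads were not recovered, so count models were not used. The worth of 1 read was estimated from gaps among low values (on simulated data, 19 of 20 factors came within 1%).

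For each tissue, log2(normalized count + 1) was fitted with limma 3.58.1 in R 4.3.3 (trended empirical Bayes), mutant against wild type, over genes averaging 10 or more, with Benjamini-Hochberg adjustment over all genes tested and a threshold of 0.05. Fold changes are on that log2 scale. Tissues were compared by an interaction term, with a single spread assumed for both. Groups came from the labels. Members, lists and tests were chosen with earlier results of these data known. Genes named beside the members are *il11ra*, up to 4 per pathway list with the largest change among those past the threshold in fins without overlap, and the 3 most like each member. Alternatives were other pseudocounts, filters, scalings and moderation, a minimum fold change, a replicate block and each library left out. For the comparison of tissues, weights set by tissue were also tried. Python 3.11.15, pandas 2.3.3 and matplotlib 3.10.9 made tables and figures.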

Additional observations from a re-analysis of the deposited data

Results flagged for a closer look

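The genotype effect on *nfkbiab*, the gene for an IκBα inhibitor, differed between the tissues by a test of the difference itself. The fin effect minus the ventricle effect was 1.78 on the log2 scale (SE 0.18, adjusted p = 0.00123 by the limma interaction term). The model assumes a single spread for both tissues, and the ventricle effect of *nfkbiab* alone did not pass the adjusted test. In an alternative fit with weights set by tissue, *nfkbiab* kept its call on the difference. Its normalized counts were higher in all 3 mutant fins than in all wild-type fins and lower in both mutant ventricles than in both wild-type ventricles. The fins were taken at 24 hpa and the ventricles at 96 hpci, so tissue, kind of injury and time cannot be told apart. With 2 or 3 libraries per group, single libraries were not tested for standing apart from their group.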

How the results depend on the processing

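Of the values recomputed under alternatives, 292 kept their direction and their side of the threshold. Of the rest, 15 turned sign, 5 lost their call and 2 gained one. The 292 include 107 ventricle values, where no fit gave a call, so keeping their side of the threshold says little there. A minimum absolute log2 fold change of 1 left 0 of the 7 genes called in fins (0 higher, 0 lower), 19 pathway entries and 2432 of all genes, because the called members lie between 0.49 and 0.99 in size. With each library left out, the count of members whose effect differed between tissues lay between 1 and 3, with 3 without wild-type ventricle replicate 1 (*nfkbiaa* 1.1 and *nfkb2* 0.87). Signs turned only for values that had not passed. With a library left out these were *rela* in fins (−0.25 to 0.23), *nfkbiaa* (−0.38 to 0.55), *nfkb1* (−0.14 to 0.29) and *nfkb2* (−0.38 to 0.23) in ventricles, and the fin minus ventricle values of *rela* (−0.075 to 0.41) and *tnfaip3* (−0.62 to 0.19). Scaling to the sum over all genes gave 0.0056 for *nfkb2* in ventricles, and a pseudocount of 10 gave 0.17 for the *tnfaip3* fin minus ventricle value. The cause was not tested.

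Replicate numbers were not used as pairs in the main fits. Same-numbered fin libraries correlated at 0.033, 0.090 and −0.084 in their deviations from the group means, and same-numbered ventricle libraries at −0.193. Not every library was closest to its own number. These values cannot decide whether libraries were paired, since deviations within a group sum to 0. With 2 ventricle libraries per genotype they are mirror images, so that crossed numbers must give 0.193. The replicate block gave 5 members and 5703 genes called in fins and 0 in ventricles. A crossed replicate block in ventricles, added after seeing the data, also gave 0 calls, as did every other fit there. With 2 libraries per genotype and about 0.2 to 0.3 for the standard error of a ventricle effect, moderate changes could not be detected in ventricles. Large changes did not pass there either. The mutated gene *il11ra* itself had a log2 fold change of −2.23 in ventricles, with an adjusted p of 0.306 in limma. In fins *tnfaip3* rests on few reads.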

Other observations

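For each member the genes with the most similar pattern were searched among 10385 genes with a mean of at least 50 in both tissues, by the Pearson correlation of log2 values centred on each tissue's mean, over 10 libraries. The points share libraries and the genotype contrast, so the values are a description. For *nfkbiab* the closest were *cgnb* (0.977), *pptc7a* (0.974) and *b3gnt2b* (0.973), and for *nfkbiaa* they included *unm_sa911* (0.961) and *shq1* (0.95). The paralogs share none of their 3 closest genes. For *nfkb1* they were *klc1a* (0.993), *atad2b* (0.981) and *C18H19orf47* (0.979), for *nfkb2* they were *wnt11* (0.981), *rpe65b* (0.945) and *si:dkey-19a16.2* (0.934), and for *relb* they were *CU856539.2* (0.97), *spns1* (0.969) and *csnk1da* (0.968). For *rela* the closest were *adck2* (0.903), *CABZ01085878.1* (0.863) and *mef2aa* (0.858), and for *tnfaip3* they were *rsf1b.1* (0.947), *gcfc2* (0.926) and *ahi1* (0.922).

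Across the 6 fin libraries *nfkbiaa* and *nfkbiab* correlated at 0.967, and across the 4 ventricle libraries at −0.396, as a description over few libraries that share the genotype contrast.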
